A study of Mus musculus with 11 samples.

Results

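The genes described here encode the proteins of the mitochondrial ribosome, chosen as every gene whose symbol on the array starts with Mrpl (large subunit) or Mrps (small subunit) followed by a digit, pseudogenes left out. Of 22180 genes measured by a probe set of their own, 71 were members, 43 Mrpl and 28 Mrps genes. A further 7 such genes (Mrpl30, Mrpl33, Mrpl41, Mrpl43, Mrpl44, Mrpl53 and Mrps6) were covered by probe sets that carry several symbols and were not measured alone. Their levels were compared between 11 microarrays of the mouse T-cell acute lymphoblastic leukaemia line 720, which came from a Tcf12+/- mouse with a Tal1 transgene under the Lck promoter, so every array shares this background. Cells received 1 of 3 Runt domain inhibitors for 8 h; RUNX transcription factors bind DNA through this domain. There were 3 arrays of AI-7-54 (replicates 1, 3 and 4) and 4 of AI-8-45, each given at 100 µM, and 4 of AI-9-54, given at 50 µM. Vehicle-treated cells were not analysed here, so every difference is between compounds, and a response to treatment cannot be read from it. Whether the replicates grew as separate cultures is not stated, so the p-values may cover technical spread only.

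Mitochondria keep ribosomes of their own, which make the few membrane proteins of the respiratory chain that the mitochondrial genome encodes. The ribosomal RNAs are read from mitochondrial DNA, but all the ribosomal proteins are encoded in the nucleus, made in the cytosol and imported. Many descend from bacterial ribosomal proteins, and others, found only in mitochondria, were added around that core. The symbols follow purification history: Mrps18a and Mrps30 are named as small-subunit proteins but sit in the large subunit, and Mrps36 is now known as a component of the 2-oxoglutarate dehydrogenase complex. Nuclear respiratory factor 1 (NRF1), ETS-family factors such as GABP, YY1 and, through the E-box, MYC are known regulators of nuclear genes for mitochondrial proteins.

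The stretches of 150 bases before the start of 5 members are shown because 4 of these members (Mrpl12, Mrpl16, Mrpl36 and Mrpl52) are described below with values by array and the fifth, Mrpl22, holds both an ETS and an NRF1 core, so that the examples differ in their promoter letters. They come from RefSeq on build GRCm38.p6 and are written 5′ to 3′ in the direction of the gene. Capitals mark matches, on either strand, to the cores searched: GCGCATGC for NRF1, CCGGAAG for ETS factors, CACGTG for the E-box, AAGATGG for YY1 and TATAAA for the TATA box.
Mrpl12, chr11:120484487-120484636 (+ strand): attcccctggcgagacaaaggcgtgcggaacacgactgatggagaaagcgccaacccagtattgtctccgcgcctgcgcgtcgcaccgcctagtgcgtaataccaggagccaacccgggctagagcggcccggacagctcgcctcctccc
Mrpl16, chr19:11770265-11770414 (+ strand): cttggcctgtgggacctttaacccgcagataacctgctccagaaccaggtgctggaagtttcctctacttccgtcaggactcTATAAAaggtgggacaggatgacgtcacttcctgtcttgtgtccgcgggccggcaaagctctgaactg
Mrpl22, chr11:58171514-58171663 (+ strand): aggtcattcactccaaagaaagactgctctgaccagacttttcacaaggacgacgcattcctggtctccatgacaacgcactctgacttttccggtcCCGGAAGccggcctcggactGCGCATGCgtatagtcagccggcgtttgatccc
Mrpl36, chr13:73330859-73331008 (+ strand): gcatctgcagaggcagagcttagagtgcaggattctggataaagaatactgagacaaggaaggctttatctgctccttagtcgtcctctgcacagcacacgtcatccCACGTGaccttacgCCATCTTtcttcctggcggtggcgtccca
Mrpl52, chr14:54426759-54426908 (+ strand): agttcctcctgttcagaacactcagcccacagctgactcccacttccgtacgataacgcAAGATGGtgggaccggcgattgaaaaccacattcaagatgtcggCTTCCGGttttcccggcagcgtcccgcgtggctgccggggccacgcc
The stretch of Mrpl12 has none of these letters, that of Mrpl16 has a TATA box, Mrpl22 has an ETS and an NRF1 core, Mrpl36 an E-box and a YY1 core, and Mrpl52 a YY1 and an ETS core. Mrpl46 and Mrps11 start 41 bases apart on opposite strands, and the whole stretch between the starts, chr7:78783090-78783130 on the + strand, is shown because it belongs to both promoters.
Mrpl46 and Mrps11: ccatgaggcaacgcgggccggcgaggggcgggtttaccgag

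The arrays had like medians (6.61 to 6.68, log2), and no pair held identical values. Precision is limited by the number of arrays. The Cd3d, Cd3e and Cd3g genes of the T-cell receptor complex had log2 signals of 11.8, 13.0 and 13.0, while the coreceptor genes Cd4 and Cd8a were dim, at 6.20 and 5.68. Of the 10 T-lineage markers, 0 were called between AI-8-45 and AI-7-54 by limma and 4 (Bcl11b, Dntt, Ptcra and Thy1) were lower in AI-9-54 than in AI-7-54, where 7.29% of all genes were lower. Of the same 10, 3 were lower in AI-9-54 than in AI-8-45, where 0.600% of all genes were: Bcl11b (-0.41), Dntt (-1.02) and Thy1 (-0.36). Their part in the differences of the members was not tested. Of 18 B-lineage, myeloid, erythroid and stromal markers, 0 were called in any comparison. The array signal of 69 of the 71 members lay above the median signal of all genes. In such bulk samples, fewer cells of a type and less RNA per cell cannot be told apart.

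At the matched dose of 100 µM, mitochondrial ribosomal protein genes were lower in AI-8-45 than in AI-7-54 in both subunits, with medians of -0.16 (log2) over the 43 large-subunit and -0.15 over the 28 small-subunit genes. By limma with Benjamini-Hochberg adjustment over all genes (adjusted p under 0.05), 19 of 71 members were called lower, 12 Mrpl and 7 Mrps genes, or 26.8%, where 3.53% of all genes were called lower. The all-gene shares here and below include dim genes, which most members are not. When only the 11090 genes of at least median level were fitted, 1038 genes were called lower, 26 of them members. None was called higher, where 2.13% of all genes were. At an unadjusted p under 0.05, 1 member was higher, where 7.25% of all genes were. The difference was below 0 in 62 of 71 members, and the median of all genes was 0.001. Every AI-8-45 array lay below every AI-7-54 array in 37 members (9.07% of all genes). The reverse held in 1 member, Mrps16 (6.79% of all genes). The count changed with single arrays: it was 5 without AI-7-54 replicate 3, 5 without AI-7-54 replicate 4 and 9 without AI-8-45 replicate 2. In the same fits, the genes called lower over the whole array also fell, from 782 to 358, 402 and 555. The medians were -0.17, -0.16 and -0.14 for the large subunit and -0.14, -0.16 and -0.14 for the small subunit.

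AI-9-54, at 50 µM, also gave lower levels than AI-7-54 at 100 µM, with medians of -0.23 for the large and -0.20 for the small subunit. Compound and dose cannot be told apart in this pair. Here 41 of 71 members were called lower by limma, 26 Mrpl and 15 Mrps genes, or 57.7%, against 7.29% of all genes. None was called higher, against 6.87% of all genes. At an unadjusted p under 0.05, 0 members were higher, against 12% of all genes. Fitting only the 11090 genes of at least median level called 1826 genes lower, 47 of them members. The difference was below 0 in 65 members. Every AI-9-54 array lay below every AI-7-54 array in 54 members (12% of all genes), and above in 0 (11.3%). The count was 26 without AI-7-54 replicate 3, where 1126 of all genes were called lower, against 1616 in the main fit. Both comparisons use the same 3 AI-7-54 arrays, so they are not independent of each other.

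**Figure D1:**
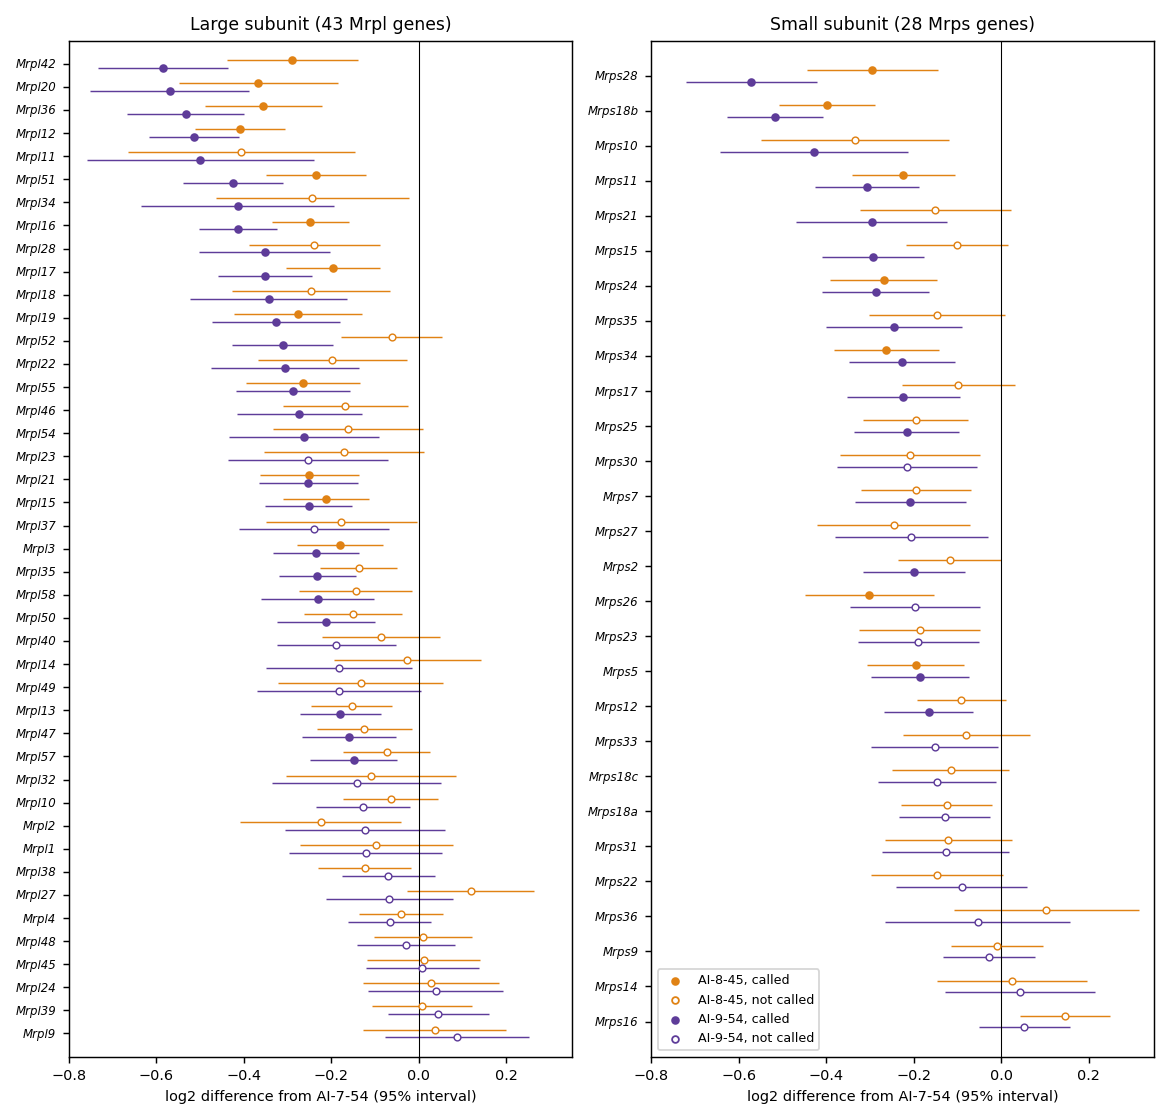
Log2 difference from AI-7-54 of each member, with its 95% interval from the limma fit, for AI-8-45 (orange) and AI-9-54 (purple), ordered by the latter. Filled points passed an adjusted p of 0.05: 19 in AI-8-45 and 41 in AI-9-54, all to the left of 0.

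The differences were small per gene. The largest corresponded to a level 33.4% lower (Mrpl42, AI-9-54 against AI-7-54), and the smallest called differences were 0.180 and 0.149 in size. The median standard error of a member's difference was 0.0615 in both comparisons with AI-7-54. Of the 71 members, 41 had a 95% interval wholly below 0 in AI-8-45 (57.7%, against 9.45% of all genes). In AI-9-54 it was 53 (74.6%, against 12.5%). Part of the members not called were thus lower before adjustment.

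**Figure D2:**
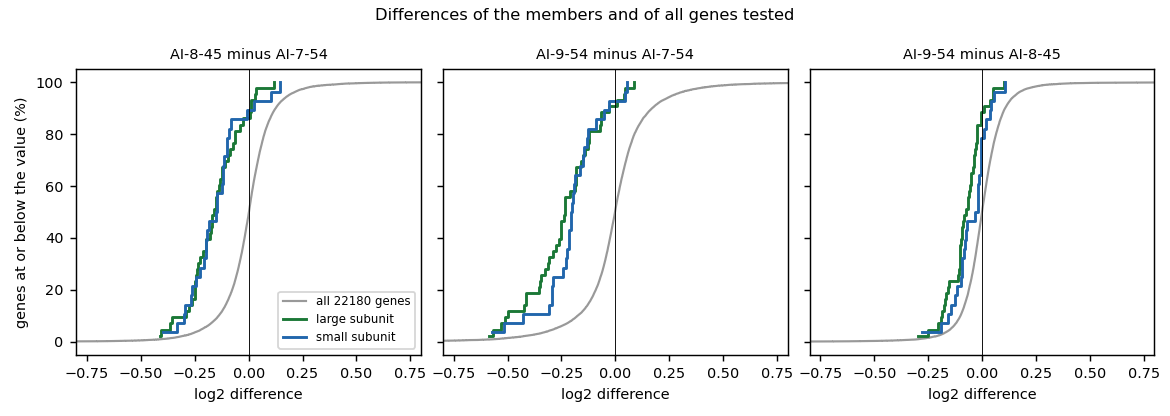
Share of genes (%) at or below each log2 difference in the 3 comparisons, for the large subunit (green), the small subunit (blue) and all 22180 genes (grey). Both subunits lie left of all genes in the comparisons with AI-7-54, and closer to them between AI-9-54 and AI-8-45, with medians of -0.075 and -0.026 there.

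To show the set by array, each member's log2 level was set against its own mean over the 11 arrays, and the median over the members was 0.120, 0.165 and 0.142 in AI-7-54 replicates 1, 3 and 4. It was 0.012, -0.068, -0.054 and 0.034 in AI-8-45 replicates 1 to 4, and -0.137, -0.088, -0.031 and -0.055 in AI-9-54 replicates 1 to 4. The 3 AI-7-54 arrays stood above all others for both subunits, while AI-8-45 and AI-9-54 arrays overlapped. Replicates 1 and 2 stand apart from 3 and 4 across all genes: deviations from the group means correlated above 0 in 19 of 20 pairs of arrays from the same set and different compounds, and in 1 of 20 pairs from different sets. Deviations within a group sum to 0, so the second count follows in part from the first. Using only replicates 1 and 2 (1 AI-7-54 array), the members' median difference from AI-7-54 was -0.15 for AI-8-45 and -0.23 for AI-9-54. Using only replicates 3 and 4 (2 AI-7-54 arrays), it was -0.18 and -0.19.

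**Figure D3:**
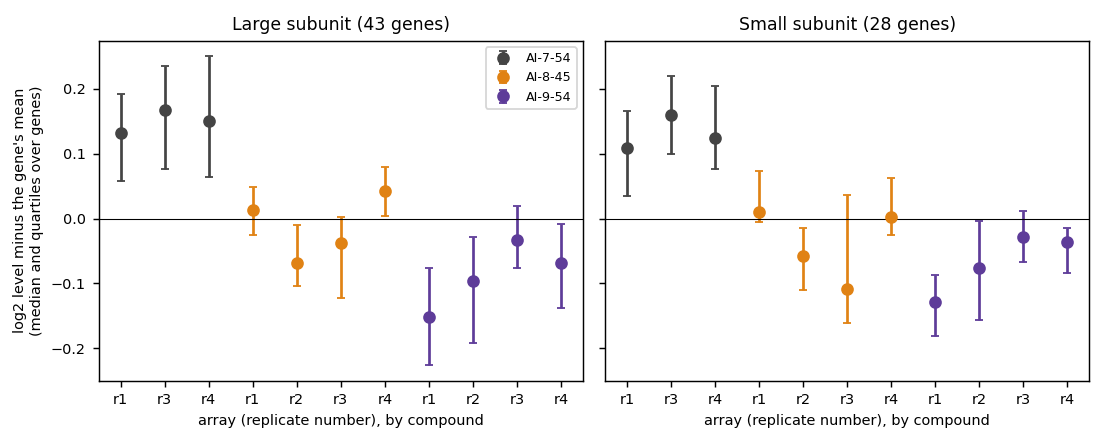
Log2 level minus the gene's mean over all arrays, as median (point) and quartiles (bar) over the genes of each subunit, by array. The 3 AI-7-54 arrays lie highest in both panels, at 0.132 to 0.167 for the large and 0.108 to 0.159 for the small subunit.

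Among large-subunit proteins of bacterial descent, 10 of 29 were lower in AI-8-45 (34.5%, against 3.53% of all genes) and 18 of 29 in AI-9-54 (62.1%, against 7.29%), each compared with AI-7-54. The clearest was Mrpl12, the stalk protein that recruits translation factors to the ribosome. Its log2 level was 9.31, 9.35 and 9.30 in AI-7-54, 8.98, 8.89, 8.84 and 8.94 in AI-8-45, and 8.75, 8.88, 8.78 and 8.82 in AI-9-54. All AI-7-54 arrays were above all others, and the other groups overlapped. The difference was -0.41 ± 0.05 (SE) for AI-8-45 (limma adjusted p 0.000367) and -0.51 ± 0.05 for AI-9-54 (2.13e-05). Mrpl11, which forms the base of the stalk, was lower in AI-9-54 by a similar amount but with a larger error (-0.50 ± 0.12, adjusted p 0.0138). In AI-8-45 its difference of -0.41 ± 0.12 missed the threshold (0.0736), although every AI-8-45 array lay below every AI-7-54 array. It passed (adjusted p 0.046) when the model held a term for the replicate set, meaning replicates 1 and 2 or replicates 3 and 4. Mrpl10, which anchors the Mrpl12 copies, differed by -0.065 (95% interval -0.17 to 0.04) and -0.13 (-0.24 to -0.02), neither of which was called.

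Mrpl36, a very short protein of bacterial type, had log2 levels of 9.06, 9.08 and 9.01 in AI-7-54, 8.76, 8.61, 8.63 and 8.77 in AI-8-45, and 8.39, 8.52, 8.63 and 8.53 in AI-9-54. The AI-7-54 arrays were again all highest. The differences were -0.36 ± 0.06 (adjusted p 0.00555) and -0.53 ± 0.06 (0.000121). Mrpl16, which lies next to the transfer RNA sites and was singled out after its values were seen, had the lowest standard error of all members, with log2 levels of 10.58, 10.66 and 10.69 in AI-7-54, 10.42, 10.39, 10.40 and 10.37 in AI-8-45, and 10.20, 10.23, 10.25 and 10.24 in AI-9-54. No group overlapped another. Mrpl16 was lower in both comparisons with AI-7-54 (-0.25 ± 0.04 and -0.41 ± 0.04, adjusted p 0.00393 and 3.38e-05) and missed the threshold between AI-9-54 and AI-8-45 (-0.17 ± 0.04, 0.0582; 0.0293 with the replicate set in the model). Mrpl20, whose bacterial relative binds ribosomal RNA early in assembly, was lower by 0.37 and 0.57 on the log2 scale (adjusted p 0.0221 and 0.000641). Mrpl19, a protein of the face between the subunits, was lower in both too (-0.28 and -0.33, adjusted p 0.0318 and 0.00606), as was Mrpl3, which reaches towards the catalytic centre (-0.18 and -0.23, adjusted p 0.0368 and 0.00401).

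Around the tunnel through which the new protein leaves, members differed in what was measured. Mrpl22, which lines the tunnel, was lower in AI-9-54 (-0.31 ± 0.08, adjusted p 0.0194) and not called in AI-8-45 (-0.20 ± 0.08, 0.202). Mrpl23, at the exit, missed the threshold in both (-0.17 and -0.25, adjusted p 0.344 and 0.0681); with the replicate set in the model it passed in AI-9-54 (adjusted p 0.0493). Mrpl4, a tunnel protein, differed by -0.042 (95% interval -0.14 to 0.05) and -0.067 (-0.16 to 0.03). Mrpl24 had log2 levels of 10.69, 10.65 and 10.61 in AI-7-54, 10.82, 10.72, 10.46 and 10.71 in AI-8-45, and 10.69, 10.74, 10.69 and 10.63 in AI-9-54. Its groups overlapped throughout. Mrpl45, which holds the ribosome at the inner membrane, had 9.12, 9.21 and 9.15 in AI-7-54, 9.16, 9.12, 9.11 and 9.29 in AI-8-45, and 9.06, 9.18, 9.27 and 9.16 in AI-9-54, and its groups overlapped too. The 95% interval of the Mrpl45 difference was -0.12 to 0.14 in both comparisons, which leaves out differences as large as those of Mrpl12 or Mrpl36; the difference between these genes was not tested.

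The 26 members not listed as of bacterial descent were taken as proteins found only in mitochondria, with Mrps36, of another complex, among them. Of these 26, 4 were lower in AI-8-45 (15.4%, against 3.53% of all genes) and 11 in AI-9-54 (42.3%, against 7.29%). Mrpl42 had the largest difference of all members in AI-9-54. Its log2 level was 9.71, 9.71 and 9.64 in AI-7-54, 9.38, 9.31, 9.49 and 9.41 in AI-8-45, and 8.92, 9.09, 9.20 and 9.21 in AI-9-54. The groups did not overlap, with AI-7-54 highest and AI-9-54 lowest. The differences from AI-7-54 were -0.29 ± 0.07 (adjusted p 0.0276) and -0.59 ± 0.07 (0.000133). Mrps26, of the small subunit, was lower in AI-8-45 (-0.30 ± 0.07, adjusted p 0.0212) and not called in AI-9-54 (-0.20 ± 0.07, 0.0795). Mrps22, Mrps27, a protein with pentatricopeptide repeats, and Mrps30 were not called in either comparison (adjusted p 0.0776 to 0.512). Mrpl39, singled out after its values were seen, differed by 0.007 and 0.045, with 95% intervals from -0.11 to 0.12 and from -0.07 to 0.16.

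Among small-subunit proteins of bacterial descent, 5 of 16 were lower in AI-8-45 (31.2%, against 3.53% of all genes) and 12 of 16 in AI-9-54 (75%, against 7.29%). Mrps28 had log2 levels of 8.57, 8.68 and 8.63 in AI-7-54, 8.14, 8.35, 8.48 and 8.36 in AI-8-45, and 8.05, 8.01, 8.14 and 8.03 in AI-9-54. All AI-7-54 arrays were highest, and the lowest AI-8-45 array lay just above the highest AI-9-54 array. The differences were -0.30 ± 0.07 (adjusted p 0.0252) and -0.57 ± 0.07 (0.000162). Mrps5, near the messenger RNA entry, was lower in both comparisons (-0.20 and -0.19, adjusted p 0.0439 and 0.0291). Of 11 fits that left out 1 array, Mrps5 lost its AI-8-45 call in 10 and its AI-9-54 call in 4. Mrps7, of the subunit's head, and Mrps12, of the decoding centre, were called lower in AI-9-54 and not in AI-8-45 (-0.21 and -0.17, adjusted p 0.0311 and 0.0332, against -0.20 and -0.092, 0.0755 and 0.369). Mrps10 was lower in AI-9-54 (-0.43 ± 0.10, adjusted p 0.0117) and missed the threshold in AI-8-45 (-0.33 ± 0.10, 0.0757), where replicate 3 lay far below the other arrays.

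The 3 proteins related to the bacterial small-subunit protein S18 are separate genes in mammals, and their values differed. Mrps18b had log2 levels of 10.27, 10.20 and 10.30 in AI-7-54, 9.87, 9.86, 9.81 and 9.90 in AI-8-45, and 9.83, 9.78, 9.70 and 9.66 in AI-9-54. All AI-7-54 arrays stood above all others. The differences were -0.40 ± 0.05 (adjusted p 0.000684) and -0.52 ± 0.05 (3.17e-05). Mrps18a differed by -0.12 and -0.13 (adjusted p 0.19 and 0.104) and Mrps18c by -0.12 and -0.15 (0.399 and 0.158). In AI-9-54 the 95% interval of Mrps18b ran from -0.63 to -0.41, below those of Mrps18a (-0.23 to -0.03) and Mrps18c (-0.28 to -0.01); the difference between the paralogs was not tested. Mrps16, named as the only member with every AI-8-45 array above AI-7-54, had 8.59, 8.64 and 8.63 in AI-7-54, 8.80, 8.77, 8.80 and 8.70 in AI-8-45, and 8.68, 8.74, 8.70 and 8.57 in AI-9-54. Its difference of 0.15 ± 0.05 in AI-8-45 was not called (adjusted p 0.11).

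**Figure D4:**
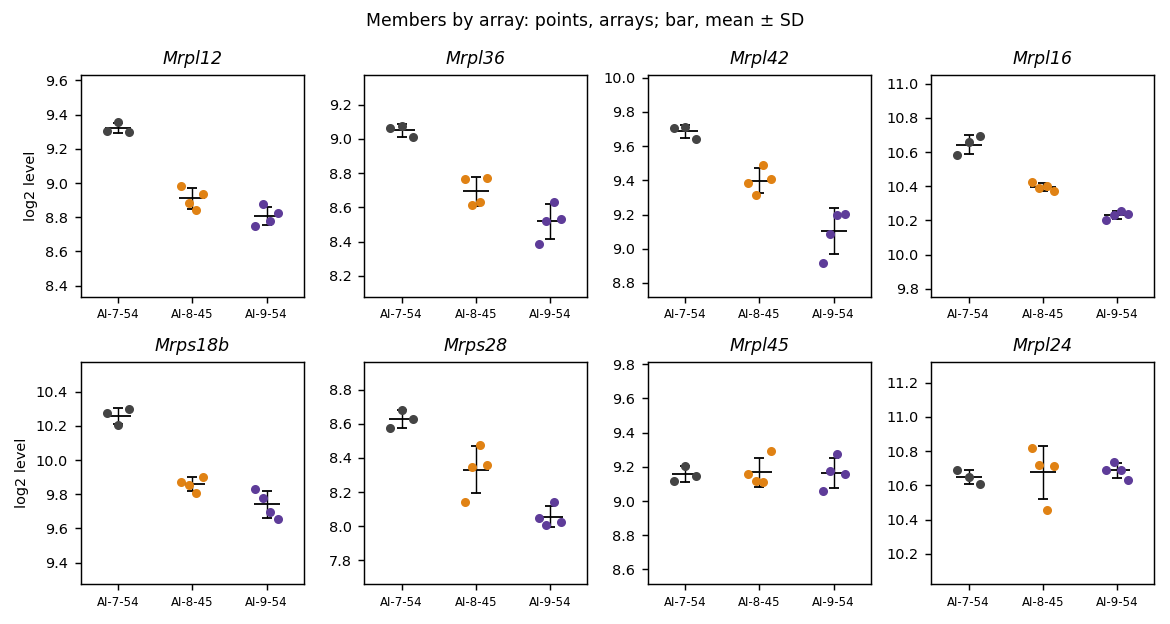
Log2 level on each array (points) with the mean ± SD of each group, for 6 members that were lower in both comparisons with AI-7-54 and for Mrpl45 and Mrpl24, which were not called. Every panel spans the same log2 range; for the 6 lower members all AI-7-54 points lie above the others.

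Between AI-9-54 at 50 µM and AI-8-45 at 100 µM, 2 of 71 members were called lower, where 0.600% of all genes were. Both are large-subunit proteins found only in mitochondria. Of the 71 members, 0 were called higher, where 0.708% of all genes were. At an unadjusted p under 0.05, 0 members were higher, where 6.08% of all genes were. Of small-subunit genes, 0 were called by limma, with 4 lower at an unadjusted p under 0.05 (14.3%, against 5.34% of all genes). With the replicate set in the model 6 members were called lower, adding Mrpl16, Mrpl51, Mrps15 and Mrps28 (adjusted p 0.0293, 0.0114, 0.0122 and 0.0142). That fit called 390 of the 22180 genes lower, against 133 in the main fit. Mrpl51 and Mrps15 are named here after their values were seen. The small-subunit median of -0.026 was -0.052 with Mrps30 and Mrps18a counted in the large subunit, and -0.012, -0.052 and -0.061 without AI-8-45 replicate 1, 2 and 3. T-lineage markers were also lower in this pair, in 3 of 10. Mrpl42 differed by -0.30 ± 0.06 (adjusted p 0.0444) and Mrpl52 by -0.25 ± 0.05 (0.0315). Mrpl52 had log2 levels of 11.130, 10.983 and 10.998 in AI-7-54, 10.999, 10.919, 11.074 and 10.910 in AI-8-45, and 10.734, 10.728, 10.758 and 10.683 in AI-9-54. AI-7-54 and AI-8-45 overlapped, and all AI-9-54 arrays were below both. The difference was below 0 in 60 of 71 members. Every AI-9-54 array lay below every AI-8-45 array in 9 members (2.84% of all genes) and above in 0 (3.83%). Of the 11 fits that left out 1 array, Mrpl42 lost its call in 10, all but the fit without AI-9-54 replicate 4. Mrpl52 lost its call in 8, all but those without AI-7-54 replicate 1 or 3 or AI-8-45 replicate 4.

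Of the 71 members, 9 had a second probe set with the same symbol in the annotation; where it lies was not checked here. Both probe sets of Mrps18b were called lower in both comparisons with AI-7-54 (-0.40 and -0.54 in AI-8-45, -0.52 and -0.58 in AI-9-54). For Mrpl12 the dimmer probe set gave -0.097 (not called) and -0.24 (adjusted p 0.0276 over every probe set). For Mrpl36 it gave -0.20 and -0.31, neither of which was called. The dimmer probe set of Mrps5 gave -0.087 and -0.20, also not called. The probe sets of Mrps16 differed in sign in AI-9-54 (0.053 and -0.11, neither called).

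In the promoter table, 62 of the 71 members had an entry, which covers 250 bases before and 50 after the start. The ETS core CCGGAAG stood in 37.1% of members (23 of 62), against 8.86% of all 32851 promoter entries of that length and 12.7% of the 16918 measured genes with an entry. Genes can have several entries, so the share of genes is the like measure. The YY1 core AAGATGG stood in 21.0% of members (13) against 6.34% of entries and 7.32% of genes, and the NRF1 core GCGCATGC in 11.3% (7) against 2.71% and 4.07%. The E-box CACGTG stood in 8.06% of members (5) against 7.15% of entries and 9.2% of genes, and TATAAA in 8.06% (5) against 13.6% and 14.3%. Both strands were searched, and none of these letter strings contains another. In AI-9-54 against AI-7-54, 13 of 23 members with an ETS core were lower and 21 of 39 without one (medians -0.21 each). For the YY1 core the counts were 8 of 13 with and 26 of 49 without (-0.23 and -0.20), and for the NRF1 core 3 of 7 and 31 of 55 (-0.14 and -0.21). For the E-box they were 2 of 5 and 32 of 57 (-0.24 and -0.21), and for the TATA box 4 of 5 and 30 of 57 (-0.27 and -0.21). None of these splits was tested. Members with large differences included Mrpl12, whose entry held none of these letters, and Mrpl36, shown above with an E-box and a YY1 core.

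Mitochondrial ribosomal protein genes often start beside another gene: 21 of 62 members (33.9%) lay head to head with a gene on the other strand, with at most 500 bases between the starts, against 12.5% of the 16918 genes measured that have a promoter entry. Mrpl46 and Mrps11, proteins of the large and the small subunit, share the 41 bases shown above and were named after their values were seen. Mrpl46 had log2 levels of 8.31, 8.12 and 8.20 in AI-7-54, 8.10, 7.98, 8.01 and 8.07 in AI-8-45, and 7.96, 7.93, 8.07 and 7.79 in AI-9-54, and Mrps11 had 9.40, 9.28 and 9.34, then 9.23, 9.14, 9.02 and 9.08, then 9.02, 8.98, 9.08 and 9.06. All AI-7-54 arrays were highest for both genes. Both were lower in AI-9-54 (-0.27 ± 0.07 and -0.31 ± 0.05, adjusted p 0.0143 and 0.00233), and in AI-8-45 Mrps11 was called (-0.22 ± 0.05, 0.0312) and Mrpl46 was not (-0.17 ± 0.07, 0.195). The 19 partners that are not members had medians of -0.023 in AI-8-45 and -0.081 in AI-9-54. In AI-8-45, 1 partner was lower and 1 higher, where 3.53% and 2.13% of all genes were. In AI-9-54, where 7.29% of all genes were lower and 6.87% higher, 3 were lower (Tcp1 beside Mrpl18, Hira beside Mrpl40 and Ndufb5 beside Mrpl47) and 3 higher (Klc4 beside Mrpl2, Zfp189 beside Mrpl50 and 2610507I01Rik beside Mrpl55).

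**Figure D5:**
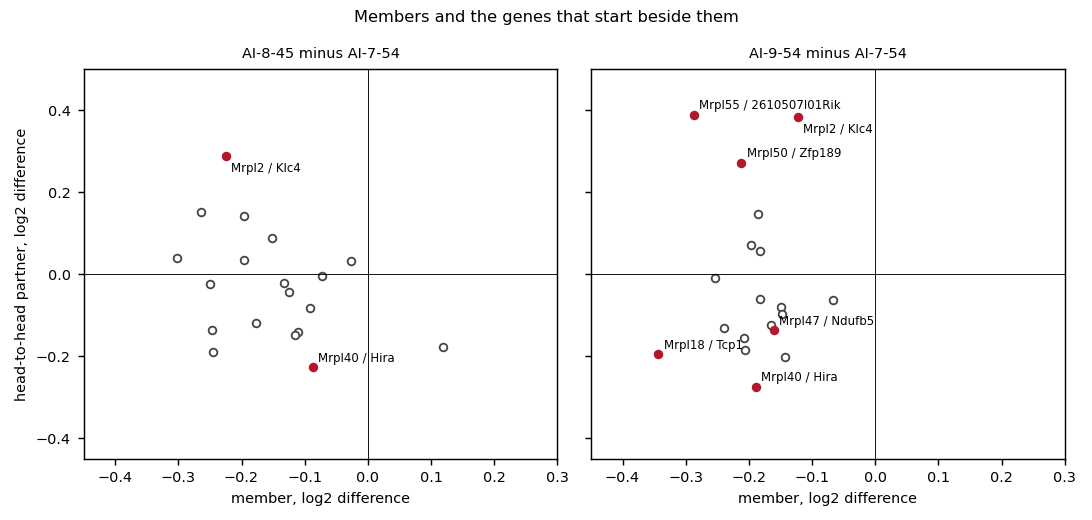
Log2 difference from AI-7-54 of 19 members (horizontal) and of the gene that starts head to head with each (vertical), for AI-8-45 and AI-9-54. Filled, named points are partners called by limma; in AI-9-54 3 partners lie above 0 and 3 below, while all 19 members lie left of 0.

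Other genes of mitochondrial translation were lower in part. The counts of these lists stand beside 3.53% of all genes lower and 2.13% higher in AI-8-45, and 7.29% and 6.87% in AI-9-54, each against AI-7-54. These shares include dim genes, while the median level of each list lay above that of all genes. Of 3 mitochondrial ribosomal proteins listed under other symbols, Ptcd3 and Gadd45gip1 were lower in both comparisons with AI-7-54 (-0.22 and -0.19 in AI-8-45, -0.27 each in AI-9-54). Of 18 translation factors, 3 were lower in AI-8-45 (16.7%) and 7 in AI-9-54 (38.9%), and 0 were called higher. They included the elongation factor Tsfm (-0.36 and -0.40) and Lrpprc, which stabilises mitochondrial messenger RNA (-0.35 and -0.36). Of 27 genes for assembly and modification of mitochondrial ribosomal RNA, 3 (11.1%) and 6 (22.2%) were lower, among them Fastkd2 (-0.26 and -0.34), and 1 was higher in each: Nsun4, a methyltransferase of the small-subunit RNA. Nsun4 was higher by 0.29 ± 0.06 in AI-8-45 and 0.70 ± 0.06 in AI-9-54 (adjusted p 0.00922 and 7.49e-06), opposite in sign to the called members.

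Of 18 mitochondrial aminoacyl-tRNA synthetase genes, 4 were lower in AI-8-45 (22.2%, against 3.53% of all genes), and 8 were lower (44.4%, against 7.29%) and 1 higher in AI-9-54, with Aars2 at -0.32 and -0.62 and Fars2 the higher one, at 0.33. Of 26 genes for transcription and replication of the mitochondrial genome and their regulators, 3 were lower in AI-8-45 (11.5%), and 7 were lower (26.9%) and 1 higher in AI-9-54. The coactivator gene Pprc1 had the largest of these differences, -0.48 ± 0.05 and -0.75 ± 0.05 (adjusted p 0.000228 and 3.12e-06), and its relative Ppargc1a was the higher one (0.40 ± 0.12, adjusted p 0.0453). Myc was lower in AI-9-54 (-0.52 ± 0.11, adjusted p 0.00573). Of 64 proteins of the cytosolic ribosome, a list added after the values were seen, 4 were lower in AI-8-45 (6.25%) and 12 in AI-9-54 (18.8%), with medians of 0.006 and -0.037, against -0.15 and -0.22 for the 71 members.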

How the data were processed

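Total RNA of 11 samples was amplified, labelled with biotin and hybridised to whole-transcript arrays, per the labels' protocols. The deposited values, 1 per probe set and array, were read as log2 from their range of 3.23 to 13.8, and RMA and Partek 6.6 are named in the submitters' processing notes. The annotation's genome build is not given in the sources used here. Of 41345 probe sets, 23521 had 1 symbol, 1814 several and 16010 none in the annotation used. Entrez identifiers linked symbols to a GRCm38.p6 gene table (23328 matched). Each gene was represented by the probe set with the highest mean, with no filter on dim genes.

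The 3 pairs of compounds were compared in 1 model with limma 3.58.1 (R 4.3.3), fitted with lmFit and contrasts.fit and moderated with eBayes over all 11 arrays, with 8 residual and 4.14 prior degrees of freedom. Tests were two-sided and adjusted with Benjamini-Hochberg over 22180 genes, and the method was tested on simulated data. Members were counted from that fit; no test was run on the list. The members, the lists and the alternatives were chosen with earlier results of these data known. The members named are, per comparison, the 8 called ones with the largest difference whose groups do not overlap, and those with a named place on the ribosome; Mrpl16, Mrpl39, Mrpl46, Mrps11 and Mrps16 were added after their values were seen. Tried as alternatives were leaving out each array, fitting only the pair of groups or only replicates 1 and 2 or 3 and 4, the replicate number or set in the model, array weights, an intensity trend, all probe sets of a gene, filters on dim genes and other scalings. Figures were drawn with matplotlib 3.10.9.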

Additional observations from a re-analysis of the deposited data

Results flagged for a closer look

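In 1 of 66 groups of 4 arrays examined (the named members and the 2 subunit medians in AI-8-45 and AI-9-54), 1 array lay far from the others by Dixon's criterion for 4 values, which chance meets in about 1 in 20 groups. Mrps10 in AI-8-45 had a log2 level of 8.64 in replicate 3, while the other 3 arrays lay between 9.05 and 9.08.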

How the results depend on the processing

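No member was called higher by limma in any comparison under any alternative tried, and the subunit medians kept their sign except where given. Of 19, 41 and 2 members called lower (AI-8-45 against AI-7-54, AI-9-54 against AI-7-54, AI-9-54 against AI-8-45), leaving out 1 array gave counts of 5 to 19, 26 to 43 and 0 to 1, newly called members included. Over all genes, these fits called 358 to 771, 1126 to 1714 and 49 to 111 lower, against 782, 1616 and 133 in the main fit. Of the members first called, 4, 21 and 0 kept their call in all 11 such fits. The 4 were Mrpl12, Mrpl16, Mrpl36 and Mrps18b. Within replicates 1 and 2, which hold 1 AI-7-54 array, the members' median differences were -0.15, -0.23 and -0.088. Within replicates 3 and 4, with fewer arrays in the fit, the counts were 4, 18 and 0, where 325, 1012 and 54 of all genes were called lower. The small-subunit median was -0.21 for AI-8-45 against AI-7-54 within replicates 3 and 4. For AI-9-54 against AI-8-45 it was -0.087 within replicates 1 and 2 and reversed to 0.0060 within replicates 3 and 4. The count of 2 between AI-9-54 and AI-8-45 was 0 with each array centred on its median, 4 with quantile normalization and 4 without genes under the median level. It was 1 with array weights, 6 with the replicate set in the model and 0 with only these 2 groups in the fit. In the same order, these fits called 87, 166, 207, 124, 390 and 61 of all genes lower, against 133 in the main fit. The cause was not tested. With the replicate number as a block, the counts were 14, 37 and 5, where 830, 1658 and 255 of all genes were called lower. Same-numbered arrays of different compounds deviated together in 9 of 10 pairs (correlation above 0), or 6 above 0.1. Differently numbered arrays did so in 11 of 30 pairs, or 9 above 0.1. Within the same replicate set, 19 of 20 pairs were above 0 and 15 above 0.1. Same-numbered arrays are always of the same set, so these counts do not tell number from set. The numbers were not taken to pair the arrays.

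The smallest differences called had sizes of 0.180, 0.149 and 0.249 in the 3 comparisons. Dim probe sets have no background measure here, and signals of different probe sets are not levels of different genes on 1 scale.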
